A study of Danio rerio with 24 samples.

Results

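The miRNAs described here are 5 paralogues of the miR-17-92 cluster: dre-miR-18b, dre-miR-19c, dre-miR-20b, dre-miR-92b and dre-miR-93. They were chosen by name, as guide strands, from the probe annotation of each array type, with every probe of each name. The list was drawn up with earlier results of these data known. They are 5 of the 231 miRNA names on the Agilent arrays and 5 of the 224 on the Exiqon arrays. On the Agilent arrays 4 of the 5 gave a probe bright enough to test, and on the Exiqon arrays all 5 did.

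RNA came from whole zebrafish embryos of the wild-type TL strain. Embryos were exposed from 30 hours post-fertilization (hpf) for 1 h to TCDD (2,3,7,8-tetrachlorodibenzo-p-dioxin, an activator of the aryl hydrocarbon receptor) or to DMSO, its usual solvent, and were collected at 36 or 60 hpf. The 4 groups were thus 36 hpf DMSO, 36 hpf TCDD, 60 hpf DMSO and 60 hpf TCDD, each with 3 biological replicates on 1-colour Agilent arrays and 3 on 2-colour Exiqon LNA arrays, 12 arrays per platform. The labels used here do not give the dose of TCDD, the number of embryos pooled per sample, or whether samples of the same title shared RNA across platforms. In RNA of whole embryos, fewer cells that express a miRNA and less of it per cell cannot be told apart.

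The miR-17-92 cluster is transcribed as a single primary RNA that is cut into miRNAs of the miR-17, miR-18, miR-19 and miR-92 seed families. The seed, near the 5′ end of a miRNA, is the main determinant of which mRNAs it represses. Vertebrate genomes carry further clusters built from the same families, and in mammals the cluster is known for promoting proliferation and survival of progenitor cells, and for roles in heart, lung and blood cell development. By seed, miR-20b and miR-93 belong to the miR-17 family, miR-18b to the miR-18 family, miR-19c to the miR-19 family and miR-92b to the miR-92 family.

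The Agilent capture probes are shown because they determine how far a paralogue can be told from its miR-17-92 counterpart. The probe letters are given as in the files, 5′ to 3′ and complementary to the miRNA, with the longest run shared with the counterpart's probe in capitals.
dre-miR-18b: TATCTGCACTAaatgcacc
dre-miR-18a: TATCTGCACTAgatgcac
dre-miR-19c: cgAGTTTTGCATggat
dre-miR-19a: tcAGTTTTGCATagatttgca
dre-miR-20b: CTACCTGCACTgt
dre-miR-20a: CTACCTGCACTataagcac
dre-miR-92b: ggAGGCCGGGACg
dre-miR-92a: acAGGCCGGGACaagt
dre-miR-93: TACCTGCACaaacagc
dre-miR-17a: TACCTGCACtgtaagca
The shared run was 11 bases for miR-18b, 10 for miR-19c, 11 for miR-20b, 10 for miR-92b and 9 for miR-93. For miR-20b this left a probe of 13 bases of which 12 in a row were also in the probe for miR-17a, and for miR-19c a run of 14 of its 16 probe bases was also in the probe for miR-19b. Signal from such relatives in a paralogue's spots was not measured.

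In the coordinates of the Agilent files (danRer5), miR-19c lay at chr14:32739701-32739715 and miR-20b at chr14:32739801-32739812, both on the minus strand and next to miR-18c and miR-363. On the same strand, miR-93 was placed at chr14:354486-354500, beside miR-25 and miR-19d. The position of miR-92b was given at chr16:42396776-42396788 and again at chr16:42531169-42531181, both on the plus strand, and that of miR-18b on an unplaced scaffold at bases 61561 to 61579. In NCBI's RefSeq table for GRCz12tu, used only for neighbours, the gene of miR-18b stands near those of mir17a-2 and mir92a-2, and no miRNA gene is listed near that of miR-92b. Of the 5, miR-19c and miR-20b therefore lie in 1 cluster and the others lie elsewhere.

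Signal differed widely between the paralogues' probes, and the dimmest sat close to background. On Agilent, the background-subtracted signal ran from 4745 to 8875 over the 12 arrays for miR-18b, from 2038 to 3862 for miR-20b, from 1168 to 2415 for miR-93 and from 170 to 701 for miR-19c, which was well above background on 11 of 12 arrays. The 4 Agilent probes for miR-92b were well above background on 0 of 12 arrays, so that platform gives no level or change for it. On Exiqon, the sample channel ran from 8811 to 17963 for miR-19c, 1099 to 2191 for miR-20b, 619 to 1619 for miR-18b, 221 to 352 for miR-92b and 164 to 382 for miR-93. Exiqon negative control spots had array medians of 89.5 to 107, so miR-92b and miR-93 were the dimmest of the 5 there. These signals belong to different probes and do not rank the miRNAs by abundance.

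Below, Agilent levels are log2 of the processed signal over the array's 75th percentile, and Exiqon levels are log2 of sample over reference pool after loess. Changes are log2 differences of group means with limma's standard error. Adjusted p is limma's Benjamini-Hochberg value over all miRNAs tested on the platform (134 Agilent, 223 Exiqon), and a change passed under 0.05. The permutation tests enumerate all 400 regroupings of the arrays within stage or within treatment (200 for miR-93 on Exiqon, with 1 array missing), are two-sided, and cannot give a p below 0.005. Arrays of a group correlated at 0.991 to 0.999 on Agilent and 0.907 to 0.990 on Exiqon. Exiqon arrays of different stages correlated at -0.61 to -0.51, and the ratio is read as sample over reference, as the dyes in the labels state (sample in Hy3).

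Between 36 and 60 hpf the paralogues of the miR-17 and miR-18 families fell on the Agilent arrays: miR-18b, miR-20b and miR-93 passed as lower in DMSO embryos, and miR-18b and miR-20b also in TCDD embryos. On the Exiqon arrays miR-20b and miR-92b passed as lower in both treatments and miR-19c as lower in TCDD embryos, while miR-93 passed as higher in TCDD embryos. The paralogue that passed as lower on both platforms and in both treatments was miR-20b. How many of all tested miRNAs had stages that did not overlap was not counted. Of all, 65% to 81.3% passed with stage, so stages that lie apart are not read as particular to a paralogue. The image names of all 36 hpf DMSO arrays on Exiqon carry scan number 2, and those of the other arrays scan number 1. That number is read from the image names alone. Scan number and stage cannot be told apart there in DMSO embryos, whereas the TCDD arrays of both stages share the number. Of the TCDD arrays, replicate 3 at 36 hpf and replicates 1 and 3 at 60 hpf were analysed on a later day. The Agilent directions of miR-18b, miR-20b and miR-93 kept their sign in 19 of 19 alternatives in each treatment. Several of those could not move the value: the deposited table, the replicate and slide blocks, the fit of only the compared groups, and the changed filters on dim probes. The Exiqon directions rest on the scaling. With each Exiqon array centred on its median in place of loess, miR-18b, miR-19c, miR-20b and miR-92b were all above 0 in both treatments. That setting moved the median of all miRNAs up by 0.20 in DMSO and 0.29 in TCDD embryos.

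Of the miR-17 family, miR-20b had Agilent levels of -0.91, -1.25 and -1.35 in 36 hpf DMSO and -1.17, -1.20 and -1.31 in 36 hpf TCDD embryos. At 60 hpf they were -1.66, -2.02 and -1.64 with DMSO and -1.72, -1.59 and -1.90 with TCDD. Every 60 hpf array lay below every 36 hpf array, and within a stage the treatments overlapped. The change was -0.60 ± 0.13 in DMSO embryos (0.659-fold, adjusted p = 0.0012) and -0.51 ± 0.13 in TCDD embryos (0.702-fold, adjusted p = 0.00339). Over both treatments the exact permutation p was 0.005, the smallest it can give, which stages that do not overlap always yield. Its other Agilent probe fell by 0.73 (SE 0.24, adjusted p = 0.0145) in DMSO embryos and gave -0.33 (SE 0.24, adjusted p = 0.208) in TCDD embryos.

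The same miRNA on Exiqon read 0.11, 0.10 and 0.050 in 36 hpf DMSO and 0.0097, 0.023 and -0.039 in 36 hpf TCDD embryos. At 60 hpf it read -0.16, -0.18 and -0.079 with DMSO and -0.31, -0.20 and -0.30 with TCDD. The 4 groups of miR-20b thus ran in the order 36 hpf DMSO, 36 hpf TCDD, 60 hpf DMSO, 60 hpf TCDD from high to low, and no neighbouring groups overlapped. How many of all tested miRNAs ran in such steps was not counted. Between treatments 24.7% (36 hpf) and 25.1% (60 hpf) of all were apart, so the steps are not read as particular to miR-20b. From 36 to 60 hpf miR-20b changed by -0.23 ± 0.039 in DMSO (0.855-fold, adjusted p = 0.00016) and by -0.27 ± 0.039 in TCDD embryos (0.83-fold, adjusted p = 3.16e-05).

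The other paralogue of the miR-17 family, miR-93, is processed with miR-25 from a cluster that in mammals lies in an intron of Mcm7. Its Agilent levels were -1.89, -2.12 and -2.24 in 36 hpf DMSO and -2.16, -2.17 and -2.14 in 36 hpf TCDD embryos. They were -2.51, -2.55 and -2.30 in 60 hpf DMSO and -2.36, -2.17 and -2.34 in 60 hpf TCDD embryos. In DMSO all 60 hpf arrays lay below all 36 hpf arrays, with a change of -0.37 ± 0.093 (0.772-fold, adjusted p = 0.003). With TCDD the change was -0.13 ± 0.093 (adjusted p = 0.214) and the stages overlapped. Within the slide that holds replicates 2 and 3, the DMSO change was -0.25 (adjusted p = 0.0558), against -0.62 on the slide of replicate 1, which has no replicate of its own.

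On Exiqon, miR-93 ran the other way. Its ratios were -0.011, 0.047 and 0.044 in 36 hpf DMSO and -0.052, -0.053 and -0.087 in 36 hpf TCDD embryos. At 60 hpf they were 0.13 and 0.10 with DMSO, where all 4 spots of replicate 1 were marked as bad by the scanner software and the fit dropped that array, and 0.13, 0.063 and 0.17 with TCDD. All 5 values at 60 hpf exceeded all 6 at 36 hpf. The change was 0.091 ± 0.040 in DMSO (adjusted p = 0.0657) and 0.19 ± 0.036 in TCDD embryos (1.14-fold, adjusted p = 0.000486). With the sample channel alone, without the reference, the TCDD change was -0.017 (adjusted p = 0.867), so the platforms did not give miR-93 a shared direction, and its Exiqon direction was lost with that setting.

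The miR-18 paralogue, miR-18b, was the most precisely measured on Agilent. It read 0.13, 0.030 and 0.024 in 36 hpf DMSO and 0.0035, 0.017 and -0.0075 in 36 hpf TCDD embryos. By 60 hpf it read -0.41, -0.47 and -0.44 with DMSO and -0.54, -0.42 and -0.46 with TCDD. The stages did not overlap, with changes of -0.50 ± 0.049 (0.706-fold, adjusted p = 1.66e-06) and -0.48 ± 0.049 (0.718-fold, adjusted p = 2.55e-06). A second probe of it changed by -0.59 ± 0.13 (adjusted p = 0.0013) and -0.39 ± 0.13 (adjusted p = 0.0151). On Exiqon it read -0.083, -0.049 and -0.0019 in 36 hpf DMSO, -0.065, -0.18 and 0.077 in 36 hpf TCDD, -0.23, -0.13 and -0.082 in 60 hpf DMSO and 0.056, -0.21 and 0.015 in 60 hpf TCDD embryos. Those values overlapped between treatments, and the stage changes of -0.10 ± 0.073 (adjusted p = 0.232) and 0.0089 ± 0.073 (adjusted p = 0.922) did not pass.

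For the miR-19 paralogue, miR-19c, the Agilent probe was dim. Its levels were -3.97, -4.35 and -4.47 in 36 hpf DMSO, -4.26, -4.53 and -4.33 in 36 hpf TCDD, -4.37, -4.78 and -4.47 in 60 hpf DMSO and -4.49, -4.34 and -4.44 in 60 hpf TCDD embryos. All groups overlapped, and the stage changes were -0.27 ± 0.14 (adjusted p = 0.0821) and -0.052 ± 0.14 (adjusted p = 0.721). On Exiqon, where it had the brightest probe of the 5, it read 0.035, 0.078 and 0.050 in 36 hpf DMSO and 0.11, 0.046 and -0.048 in 36 hpf TCDD embryos. At 60 hpf it read -0.038, -0.11 and 0.025 with DMSO and -0.20, -0.13 and -0.13 with TCDD. The stages did not overlap in either treatment, but the change passed in TCDD embryos alone. It was -0.097 ± 0.045 (adjusted p = 0.0757) in DMSO and -0.19 ± 0.045 (0.878-fold, adjusted p = 0.00194) in TCDD embryos. Keeping control and empty spots in the loess turned the TCDD value to 0.058 (adjusted p = 0.806). A separate Exiqon probe made for miR-19b and miR-19c together gave -0.11 ± 0.052 (adjusted p = 0.0771) and -0.16 ± 0.052 (adjusted p = 0.0141).

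The miR-92 paralogue, miR-92b, could be measured on Exiqon alone. Its ratios were 0.16, 0.11 and 0.14 in 36 hpf DMSO and 0.056, 0.040 and 0.034 in 36 hpf TCDD embryos. They were -0.032, -0.046 and 0.0050 in 60 hpf DMSO and -0.18, -0.095 and -0.092 in 60 hpf TCDD embryos. As for miR-20b, the groups ran from 36 hpf DMSO through 36 hpf TCDD and 60 hpf DMSO to 60 hpf TCDD with no overlap between neighbours, an order not read as particular to either. Its stage changes were -0.16 ± 0.034 (0.895-fold, adjusted p = 0.00079) in DMSO and -0.17 ± 0.034 (0.891-fold, adjusted p = 0.000522) in TCDD embryos. A dimmer second probe, at 113 to 156 in the sample channel and so close to the negative controls, gave -0.14 ± 0.044 (adjusted p = 0.0139) and -0.10 ± 0.044 (adjusted p = 0.0508).

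**Figure D1:**
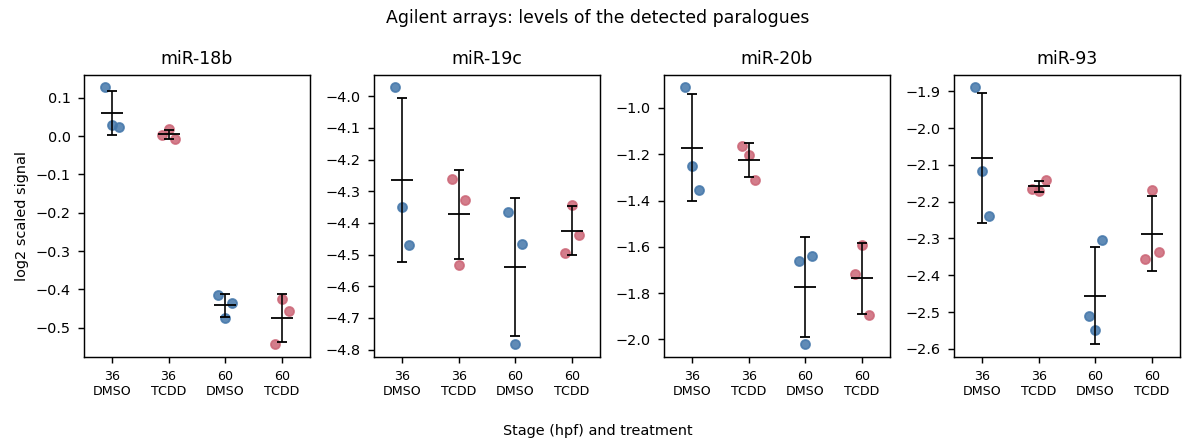
Agilent levels of the 4 tested paralogues (log2 of signal over the array's 75th percentile, y axis) in the 4 groups (x axis), with 1 point per array and bars at the group mean ± SD of 3 arrays. For miR-18b and miR-20b every 60 hpf point lies below every 36 hpf point, and miR-19c overlaps throughout.

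**Figure D2:**
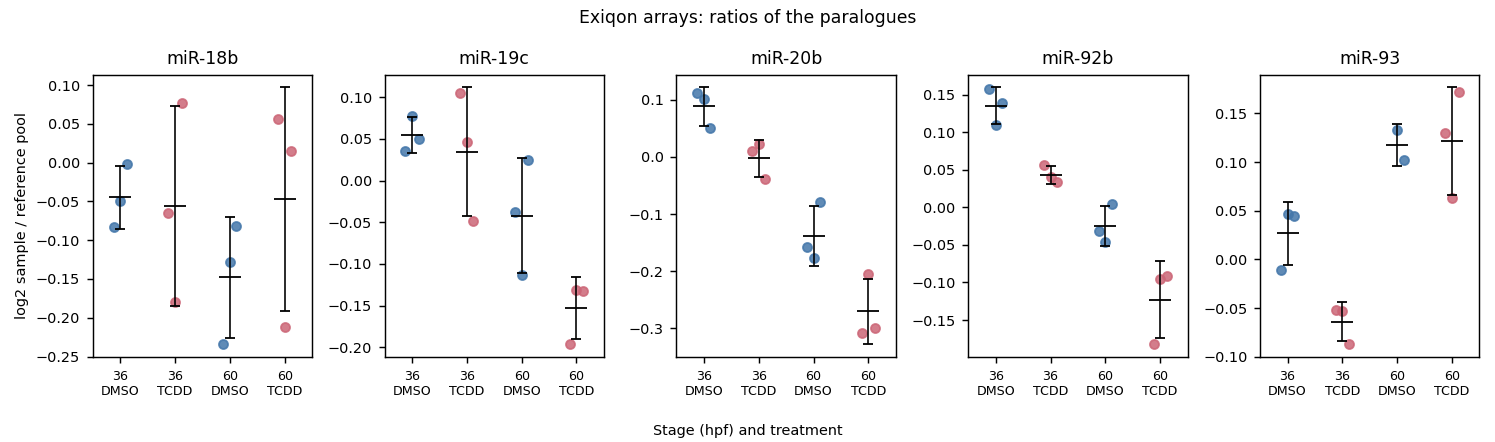
Exiqon levels of the 5 paralogues (log2 of sample over reference pool, y axis) in the 4 groups (x axis), with 1 point per array and bars at the group mean ± SD of 3 arrays (2 for miR-93 in 60 hpf DMSO). For miR-20b and miR-92b the groups step down from 36 hpf DMSO to 60 hpf TCDD with no overlap between neighbours, and miR-93 is higher at 60 hpf. How many of all tested miRNAs step down in this way was not counted.

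Counted over the list, 3 of the 4 Agilent paralogues passed in DMSO embryos, all lower, where 78.4% of all tested miRNAs passed and 32.8% passed as lower. In TCDD embryos 2 of 4 passed, both lower, where 81.3% of all passed and 31.3% passed as lower. On Exiqon 2 of 5 passed in DMSO embryos, both lower, against 65% of all passing and 16.1% lower. In TCDD embryos 4 of 5 Exiqon paralogues passed, 3 lower and 1 higher, against 68.6% of all passing and 16.6% lower. Passing with stage was therefore common on both platforms, and passing as lower less so. The median paralogue changed by -0.44 on Agilent in DMSO embryos and -0.30 in TCDD embryos, beside 0.10 and 0.20 for all tested miRNAs. On Exiqon the medians were -0.10 and -0.17, beside 0.11 and 0.14.

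The split of the calls of all miRNAs moved with the scaling on both platforms. Agilent calls in DMSO embryos split 61 higher to 44 lower, and 45 to 66 with the percentile taken over all probes or 47 to 63 after quantile normalization, which lowered the median of all miRNAs by 0.28 and 0.22. In TCDD embryos the Agilent split was 67 to 42, and 48 to 62 or 45 to 61 under those settings, with the median lowered by 0.31 under each. Exiqon calls in DMSO embryos split 109 to 36, 9 of 131 calls were lower with median centring, and the split was 74 to 45 with the sample channel alone and 109 to 17 with control spots kept in the loess. In TCDD embryos that split was 116 to 37, and 150 to 7 with median centring. Set against the median change of all miRNAs under the same setting, miR-20b stayed below it under every setting tried: by -0.85 to -0.60 on Agilent and by -0.47 to -0.12 on Exiqon in DMSO embryos. The same held for miR-92b, at -0.41 to -0.24 in DMSO and -0.47 to -0.27 in TCDD embryos, and on Agilent for miR-18b, at -0.67 to -0.50, and miR-93, at -0.73 to -0.37, in DMSO embryos. By that measure miR-93 on Exiqon ranged from -0.12 to 0.12 in DMSO embryos and kept no direction.

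Over the same interval some miRNAs known for other tissues changed by more than the paralogues and others did not. The neuronal miR-124 and miR-9 rose by 1.61 to 2.52 on the 2 platforms, and the 3 tested members of the miR-430 family, which clears maternal mRNAs, changed by -2.29 to -1.55. In DMSO embryos on Agilent, the erythroid markers gave 0.34 to 0.58, with 1 of 2 passing as higher, the muscle markers -0.30 to 0.50, with 2 higher and 1 lower of 3, and the epithelial markers -0.69 to -0.0088, with 2 of 3 lower. The vascular markers gave -0.046 to 0.79, with 1 of 2 higher, and the liver miR-122 passed at 1.28. On Exiqon the erythroid markers gave 0.47 to 0.53 (2 of 2 higher) and the muscle markers -0.26 to 0.20 (1 higher and 1 lower of 3). The epithelial markers there gave -0.46 to -0.020 (1 of 3 lower), the vascular markers 0.063 to 1.30 (2 of 3 higher), and miR-122 passed at 1.00. The part that changing tissue proportions had in the paralogues' values was not tested.

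TCDD against DMSO gave no paralogue that passed at either stage alone on either platform. Averaged over both stages, miR-20b and miR-92b passed as lower on Exiqon, by 0.11 and 0.095 on the log2 scale, and each of 6 other processing settings lost both calls. On Agilent no treatment change of a paralogue passed, including that of miR-20b.

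At 36 hpf, 0 of 4 Agilent paralogues passed by limma, where 0.746% of all tested miRNAs passed. Before adjustment 0 of the 4 were under 0.05, against 7 of all 134. The changes were -0.056 ± 0.049 for miR-18b, -0.11 ± 0.14 for miR-19c, -0.055 ± 0.13 for miR-20b and -0.077 ± 0.093 for miR-93. The treatments did not overlap for 1 of 4, miR-18b, where that was so for 17.2% of all. At 60 hpf 0 of 4 passed, against 4.48% of all. Before adjustment 0 of the 4 were under 0.05, against 13 of all 134. The groups were apart for 0 of 4, against 11.9% of all. The Agilent value farthest from 0 at 60 hpf was 0.17 ± 0.093 for miR-93 (95% interval -0.035 to 0.37, adjusted p = 0.67). Averaged over stages 0 of 4 passed, against 3.73% of all, with changes of -0.044 to 0.046. The interaction of stage and treatment passed for 0 of 4, against 1.49%, and its value farthest from 0 was 0.25 ± 0.13 for miR-93 (adjusted p = 0.638).

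On Exiqon at 36 hpf, 0 of 5 passed by limma, against 0.448% of all. Before adjustment 16 of all 223 were under 0.05, among them 3 of the 5. Those were miR-92b at -0.092 ± 0.034, miR-93 at -0.091 ± 0.036 and miR-20b at -0.090 ± 0.039, with adjusted p of 0.471, 0.471 and 0.583. For these 3 of 5 the treatments did not overlap, which held for 24.7% of all miRNAs tested. All 3 arrays of 36 hpf DMSO carry another scan number in their image names than the other arrays. Scan number and treatment therefore cannot be told apart at that stage, and the 36 hpf arrays carry this into the average over both stages. At 60 hpf 0 of 5 passed, against 6.73% of all. Before adjustment 56 of all 223 were under 0.05, again with 3 of the 5 among them. They were miR-20b at -0.13 ± 0.039 (adjusted p = 0.0595), miR-92b at -0.099 ± 0.034 (adjusted p = 0.0873) and miR-19c at -0.11 ± 0.045 (adjusted p = 0.158). Their groups did not overlap, which held for 25.1% of all. The changes of miR-18b and miR-93 at 60 hpf were 0.10 ± 0.073 and 0.0040 ± 0.040.

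Averaged over both stages, 2 of 5 passed on Exiqon, both lower, where 7.17% of all miRNAs passed and 2.24% passed as lower. For miR-20b the change was -0.11 ± 0.028 (0.926-fold, 95% interval -0.17 to -0.051, adjusted p = 0.0273), lower in 6 of 6 TCDD arrays than in every DMSO array of the same stage. For miR-92b it was -0.095 ± 0.024 (0.936-fold, 95% interval -0.15 to -0.044, adjusted p = 0.0273), also lower in 6 of 6. Each had an exact permutation p of 0.005 over both stages, the smallest possible, which such separation at both stages always gives. How many of all miRNAs were apart in the same direction at both stages was not counted. At a single stage 24.7% (36 hpf) and 25.1% (60 hpf) of all were apart. For miR-18b, miR-19c and miR-93 those p-values were 0.465, 0.1 and 0.15, and on Agilent they were 0.11 for miR-18b, 1 for miR-19c, 0.94 for miR-20b and 0.575 for miR-93. The Agilent interval for miR-20b, -0.21 to 0.19, includes the Exiqon value of -0.11, but the log2 scales of the platforms differ. Over both treatments the stage change of miR-20b was -0.56 on Agilent and -0.25 on Exiqon. The interval therefore does not settle whether the platforms differ in the treatment change. The interaction passed for 0 of 5, against 2.69% of all.

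Leaving out 1 array at a time lost the call of miR-20b in 7 of 12 fits, those without replicate 1 or 2 of 36 hpf DMSO, 3 of 36 hpf TCDD, 1 or 3 of 60 hpf DMSO, and 1 or 3 of 60 hpf TCDD, with adjusted p up to 0.0735. That of miR-92b was lost in 7 of 12, without any replicate of 36 hpf DMSO, 2 or 3 of 36 hpf TCDD, or 1 or 3 of 60 hpf DMSO, also with adjusted p up to 0.0735. Without replicate 2 of 60 hpf TCDD, both passed at 60 hpf alone, miR-20b at -0.17 (adjusted p = 0.0128) and miR-92b at -0.11 (adjusted p = 0.0443).

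Properties of the arrays moved with these Exiqon calls. For miR-20b, 1 or 2 of the 4 spots were marked as bad on each of the 6 DMSO arrays and none on the TCDD arrays, and with such spots kept the change was -0.083 (adjusted p = 0.104). The images of 3 TCDD arrays were analysed on a later day. With that day as a block the change was -0.073 (adjusted p = 0.282) for miR-20b and -0.081 (adjusted p = 0.201) for miR-92b, and on the first day alone -0.069 (adjusted p = 0.307) and -0.079 (adjusted p = 0.128). The second probe of miR-92b gave -0.0082 ± 0.031 (adjusted p = 0.890). The erythroid miR-451 and miR-144, listed as markers of red blood cells, also passed as lower in 2 of 2 on Exiqon over both stages, at -0.14 and -0.10. At 60 hpf alone they passed as lower in 2 of 2 on Exiqon, at -0.26 and -0.16. On Agilent at 60 hpf miR-451 passed at -0.22, and in the interaction at -0.32, while miR-144 stood at 0.059. Over both stages 0 of 2 passed on Agilent, at -0.061 to 0.059, and at 36 hpf both were above 0 there, at 0.058 to 0.099. Other marker lists moved too: the liver miR-122 passed as higher on Agilent at 60 hpf, at 0.57. The epithelial markers gave -0.096 to 0.025 on Exiqon over both stages, and none passed. The part that red cells had in the paralogues' values was not tested.

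**Figure D3:**
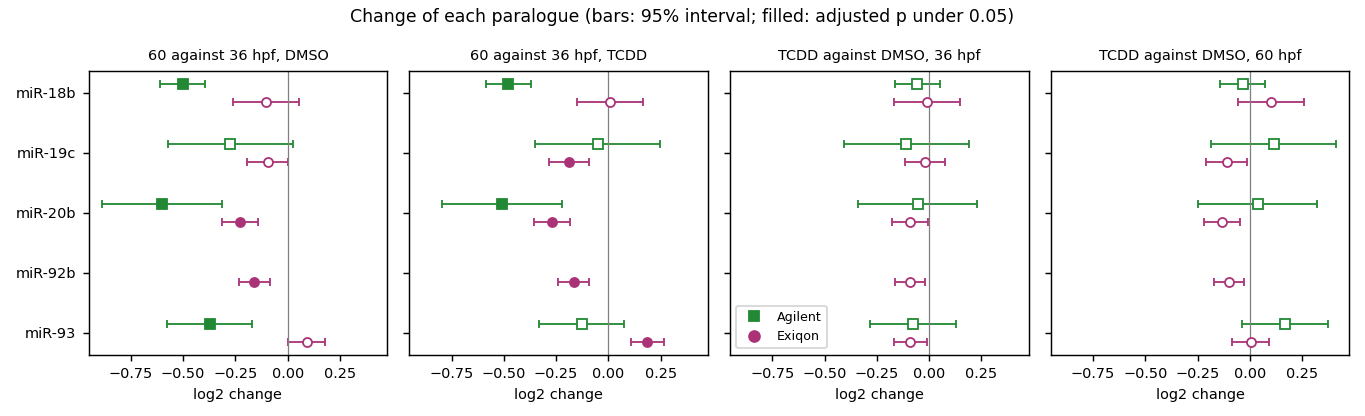
Log2 change (x axis) of each paralogue (y axis) with stage in each treatment and with TCDD at each stage, on Agilent (squares) and Exiqon (circles), with 95% intervals from limma and filled points where the adjusted p is under 0.05. The stage changes of miR-20b lie below 0 and are filled on both platforms, and no treatment point at a single stage is filled.

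**Figure D4:**
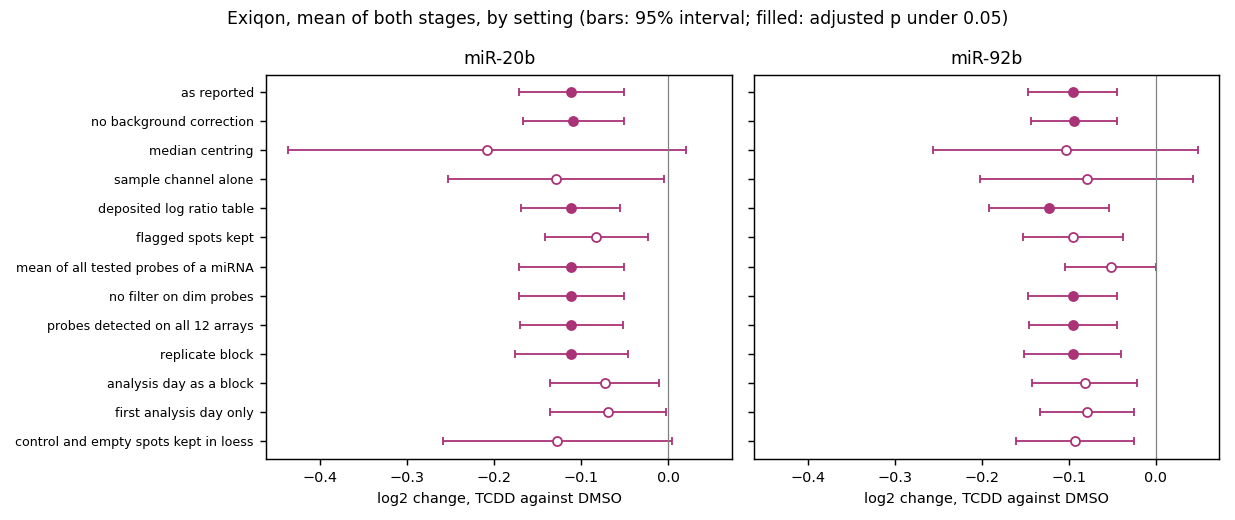
Exiqon change with TCDD over both stages for miR-20b and miR-92b (log2, x axis) under each processing setting (y axis), with 95% intervals and points filled where the adjusted p is under 0.05. Every value is below 0, and both points are unfilled under 6 of the other settings.

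Each paralogue was set against its counterpart of the same seed family in the miR-17-92 cluster on the same array, 9 pairs over both platforms, with p-values from exact permutation within treatment or stage and Benjamini-Hochberg adjustment over the 9. In the Agilent files the counterparts miR-17a and miR-92a each have 2 positions, on chromosome 8 and on the scaffold that holds miR-18b. Their signal therefore cannot be assigned to the miR-17-92 cluster alone. Between 36 and 60 hpf 6 of the 9 pairs differed. How often other pairs of miRNAs differ was not tested. Of single miRNAs, 78.4% on Agilent and 65% on Exiqon passed with stage in DMSO embryos, and 81.3% and 68.6% in TCDD embryos. The 6 of 9 is therefore not read as particular to these pairs. Only changes of the difference are read, since the probes of a pair differ in brightness.

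The pair of miR-18b and miR-18a on Agilent stood at -0.30, -0.32 and -0.26 in 36 hpf DMSO and -0.35, -0.29 and -0.29 in 36 hpf TCDD embryos. At 60 hpf it stood at -0.45, -0.47 and -0.58 with DMSO and -0.61, -0.54 and -0.45 with TCDD. Every 60 hpf value was below every 36 hpf value, and the shift was -0.22 (adjusted p = 0.015 by exact permutation), so miR-18b stood lower against miR-18a at 60 hpf. On Exiqon that difference was 0.037 (adjusted p = 0.341), and 0.26 (adjusted p = 0.0514) with the sample channel alone, opposite in sign to Agilent. The pair of miR-19c and miR-19a shifted up with stage on both platforms, by 0.43 on Agilent (adjusted p = 0.0338) and 0.080 on Exiqon (adjusted p = 0.036), so miR-19c stood higher against miR-19a at 60 than at 36 hpf. On Exiqon that call held in 7 of the 12 fits that each left out 1 array. The stages of this pair overlapped in DMSO embryos on Agilent and in TCDD embryos on Exiqon. The Agilent probe of miR-19c was dim and shares most of its bases with the probe for miR-19b, which limits the Agilent shift. On Exiqon the profiles closest to miR-19c were its joint probe with miR-19b (root mean square difference 0.033) and miR-19b (0.038). Signal of miR-19b in the Exiqon spots of miR-19c was not measured, so neither shift is read as particular to miR-19c. Quantile normalization, under which the pair was not tested, moved the stage value of miR-19c over both treatments from -0.16 to -0.86. Under it the 10 relatives, miR-19a among them, had median changes of -0.28 in DMSO and -0.41 in TCDD embryos. The Agilent shift of the pair may therefore not hold under that scaling.

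In the miR-17 family, miR-20b against miR-20a shifted by -0.11 on Agilent (adjusted p = 0.433) and -0.092 on Exiqon (adjusted p = 0.0375). On Agilent 9 of the 120 spots of the miR-20a probe were saturated, on 2 arrays, and entered at their recorded value. The Exiqon call held in 6 of 12 leave-one-out fits and turned to 0.15 (adjusted p = 0.0375) with the sample channel alone. For miR-93 against miR-17a the shift was 0.36 on Exiqon (adjusted p = 0.015) and 0.047 on Agilent (adjusted p = 0.595), and median centring of Exiqon gave 0.059 (adjusted p = 0.591). For miR-92b against miR-92a on Exiqon it was -0.16 (adjusted p = 0.015). Treatment changed 0 of the 9 pairs by exact permutation, 1 being under 0.05 before adjustment: miR-20b against miR-20a on Exiqon, at -0.11 (p = 0.015, adjusted p = 0.135).

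**Figure D5:**
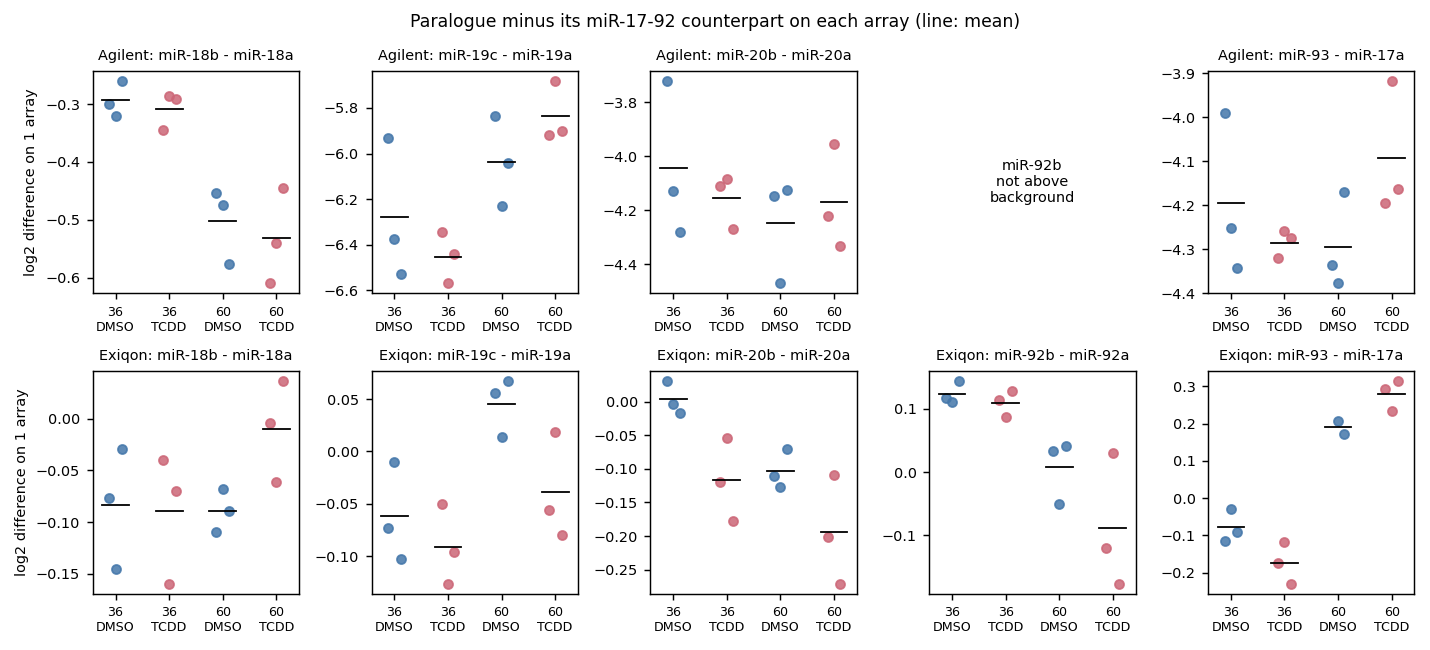
Paralogue minus its miR-17-92 counterpart on each array (log2 difference, y axis) in the 4 groups (x axis), 1 panel per pair and platform, with lines at group means. On Agilent the miR-18b pair drops at 60 hpf in both treatments, and on Exiqon the miR-93 pair rises.

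Other miRNAs of the 4 seed families, 10 names listed as relatives, gave the setting for these changes. On Agilent 10 of 10 passed as lower at 60 than at 36 hpf in DMSO embryos (median -0.39), against 32.8% of all tested miRNAs. In TCDD embryos 10 of 10 did (median -0.45), against 31.3% of all. After quantile normalization 7 of 10 did in each. Saturated spots of miR-19b and miR-20a blur 2 of those changes; without these, 8 of 8 passed as lower, with medians of -0.34 and -0.40. On Exiqon 7 of 10 passed as lower in DMSO (median -0.11), against 16.1% of all. In TCDD embryos 7 of 10 did (median -0.20), against 16.6% of all. With median centring 0 passed as lower in either treatment, and 2 and 7 passed as higher. The neighbour of miR-93, miR-25, had Exiqon stage changes of 0.053 and 0.064 that did not pass, and Agilent changes of -0.21 and -0.24 that passed. With TCDD, 0 of 10 relatives passed on Agilent at either stage, against 0.746% (36 hpf) and 4.48% (60 hpf) of all. On Exiqon 0 of 10 passed at 36 hpf, against 0.448% of all. At 60 hpf 1 of 10 passed, miR-19b at -0.12 (adjusted p = 0.0486), against 6.73% of all. Of the paralogues' 5 passenger strands, 0 were tested on Agilent and 1, that of miR-18b, on Exiqon, with stage changes of -0.068 and 0.048 that did not pass.

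The miRNAs closest in profile were found as the smallest root mean square difference of centred log2 values over the 12 arrays (11 for miR-93 on Exiqon), a description with no test. On Exiqon the closest of 222 to miR-20b was miR-92b (0.054), followed by miR-18c (0.060), its chromosome 14 neighbour. Closest to miR-92b were miR-19b (0.039) and miR-363 (0.040), to miR-19c its joint probe with miR-19b (0.033) and miR-19b (0.038), to miR-18b miR-18a (0.053) and miR-20a* (0.064), and to miR-93 miR-101b (0.033) and miR-21 (0.048). On Agilent the closest to miR-18b were miR-18c (0.069) and miR-19d (0.073), to miR-20b, leaving aside miR-19b, miR-203b (0.12), to miR-93 miR-10c (0.039) and miR-200a (0.056), and to miR-19c miR-10c (0.10) and miR-93 (0.12). The Agilent probe of miR-19b, which ranked closest to miR-20b, was saturated in 84 of 120 spots, so its closeness is not read. All such profiles share the same arrays and scaling.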

How the data were processed

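Total RNA was isolated with a QIAGEN miRNeasy kit and its quality checked on a Bioanalyzer, as the labels' protocols state. The Agilent intensity values were deposited by the authors as spot signals with background subtracted, made with Feature Extraction 9.5 per the submitters' processing notes, and the deposited value table equals them (largest difference 0). Exiqon scanner files deposited by the authors hold spot and local background intensity for sample (Hy3) and reference pool (Hy5), per the labels. The Exiqon value table the authors deposited reads as a log2 ratio of sample over reference; it correlated at 0.898 to 0.972 with the scanner files' ratio, with column medians of -0.13 to 0.26, and how it was normalized was not given in the labels. Spot marks other than intensity (bad, outlier, saturated, above background) came from the programs, per the file headers.

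From these, Agilent outlier spots (3.05% to 6.39% per array) were dropped and signals scaled to the 75th percentile of 186 probes that all 12 arrays detected, floored at 0.0273 and averaged as log2. Of 490 probes, 191 to 277 per array were detected, meaning that at least 0.5 of a probe's spots were well above background. Exiqon spots marked as bad (4.51% to 18.3% per array) were dropped, background was corrected with normexp (offset 50), and each array was normalized by loess with control and empty spots at weight 0. Of 255 named probes, 241 to 255 were detected, at 2 background SDs. A miRNA took its brightest probe and was tested if all 3 arrays of some group detected it. Models of 4 group means were fitted over 12 arrays per platform with limma 3.58.1 (R 4.3.3, version 1.17.8 of data.table). The limma p-values rest on the spread between arrays of a group, shared in part over all miRNAs. That spread holds the biological replicates together with the Agilent slides and the analysis days of the Exiqon TCDD arrays. The number of arrays limits precision. The fit was tested on simulated data with planted log2 changes of 0.5 on Agilent and 0.2 on Exiqon. It recovered 91% and 73.8% of them, and 5.45% and 3.91% of its calls were false. Its noise was drawn separately for each miRNA, without slides, scan numbers, analysis days or spot marks. The Exiqon treatment changes that passed were smaller than the planted size, so the simulation does not bear on those calls. The Agilent treatment changes of the paralogues were also smaller than planted, so it does not bear on their lack of calls either. All 5 paralogues are named. The 10 relatives and the marker lists, like the members, were chosen with earlier results of these data known. For each member the 2 miRNAs closest in profile are named. Alternatives covered background, scaling, spot and probe filters, the choice of probe, batches and left-out arrays. Mature miRNA sequences were not used here.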

Additional observations from a re-analysis of the deposited data

How the results depend on the processing

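Over 54 changes of single paralogues and 1104 alternative values of them, 1029 kept their direction and side of the threshold, or turned sign while passing in neither (93). Several alternatives could not move a change, on Agilent for instance the deposited table and the replicate and slide blocks. A change that passed in neither fit counts as kept. The 1029 is therefore not read as a measure of how firm the calls are. Another 31 lost the call, 21 gained it, 9 reversed, and 14 moved beyond a limit set from the standard error of the change. Those 14 all came from the first Agilent slide alone, with no replicate. Of 242 alternative counts of paralogues that passed, 217 stayed within 1.5 times and 25 moved, with the same limit on the 217. Median centring of Exiqon arrays reversed the stage changes of miR-18b to 0.30 (adjusted p = 0.0155), miR-20b to 0.19 (0.293) and miR-92b to 0.076 (0.533) in DMSO embryos, and of miR-19c to 0.41 (0.0598), miR-20b to 0.29 (0.104) and miR-92b to 0.14 (0.228) in TCDD embryos. Over both treatments it turned the permutation values to 0.42 for miR-18b, 0.37 for miR-19c, 0.24 for miR-20b and 0.11 for miR-92b (exact p = 0.005, 0.025, 0.06 and 0.16). The sample channel alone turned miR-93 to -0.28 at 60 hpf with TCDD (adjusted p = 0.131) and to -0.017 between stages in TCDD embryos (adjusted p = 0.867), and miR-20b against miR-20a to 0.15. Keeping control and empty spots in the Exiqon loess, an alternative chosen after seeing the data, turned miR-19c to 0.058. The cause of these turns was not tested. Against miR-17a, the stage shift of miR-93 was 0.059 (adjusted p = 0.591) with median centring, which also gave miR-20b against miR-20a a treatment shift of -0.076 (adjusted p = 0.045).

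The 2 Exiqon treatment calls over both stages fell to 0 with median centring (-0.21 for miR-20b, -0.10 for miR-92b), the sample channel alone (-0.13, -0.079), bad spots kept (-0.083, -0.095), the analysis day as a block (-0.073, -0.081), the first day alone (-0.069, -0.079) or control spots in the loess (-0.13, -0.092), to 1 with the mean of all probes, and to 0 to 2 without single arrays. In the authors' deposited table both passed, at -0.11 and -0.12. Of 24 alternatives each, miR-20b passed in 11 and miR-92b in 10. At 60 hpf the count of 0 became 1 with probes detected on all 12 arrays, and 0 to 2 without single arrays. Between stages, the Exiqon count of 4 in TCDD embryos became 2 with median centring, the sample channel alone or control spots in the loess. In DMSO embryos the count of 2 became 4 on the first day alone and 1 with control spots in the loess. The Agilent count of 2 in TCDD embryos became 4 with the percentile over all probes or quantile normalization. Single arrays decided further calls in DMSO embryos: miR-19c passed on Agilent without replicate 3 of 36 hpf (-0.38) or replicate 1 of 60 hpf DMSO (-0.36), and on Exiqon without replicate 3 of 60 hpf DMSO (-0.13). Leaving out single arrays gave stage shifts of 0.065 to 0.093 for miR-19c against miR-19a and -0.11 to -0.073 for miR-20b against miR-20a on Exiqon, and -0.13 to -0.087 for the treatment shift of miR-20b, which passed without replicate 2 of 60 hpf TCDD.

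On Agilent, replicate 1 of each group shared 1 slide and replicates 2 and 3 the other, and the slide as a block changed no call of a paralogue. Beyond that, the numbers did not meet the bar for pairing, a correlation over 0.1 in every pair, which 11 of 18 same-number pairs reached on Agilent and 7 of 18 on Exiqon: deviations of arrays with the same number correlated at a median of 0.16 on Agilent (-0.54 to 0.61) and 0.053 on Exiqon (-0.29 to 0.31), and 7 and 3 of 12 arrays correlated best with their own number. Arrays of different groups and numbers had medians of -0.089 on Agilent and -0.0034 on Exiqon. That bar is strict, and on Agilent arrays of the same number shared some deviation. With the replicate block the counts of paralogues that passed were unchanged in all 12 comparisons, and the Exiqon treatment change of miR-20b was -0.11 with adjusted p = 0.0427. Low signal limits miR-92b on Agilent, where no probe was detected on any array, and miR-19c there.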
